A study of Mus musculus with 24 samples.

Results

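The forkhead family holds transcription factors that share a winged-helix DNA-binding domain, the forkhead box, and are sorted by sequence into subfamilies that carry a letter. Its members in the mouse were taken as the protein-coding genes whose symbol is Fox, a letter from a to s, and a number, which gave 44 of 21883 protein-coding genes. Coverage by H3K27ac, the acetylation of lysine on histone H3 that accompanies active promoters and enhancers, was described for each of them in mouse limb buds.

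Limb buds deficient in Sox9, the transcription factor that cartilage formation needs, were set against control limb buds at the stages when cartilage starts to form. The H3K27ac libraries came from 4 groups with 1 library each, by their labels Sox9null limb buds at E11.5, Sox9cKO limb buds at E12.5, control limb buds at E11.5 and control limb buds at E12.5. The labels give no strain, no Cre driver, no genotype of the controls and no number of embryos, and do not say whether fore and hind limbs were pooled. Of 24 samples of 5 histone marks and 4 inputs, 20 were not analysed here. With no replicates, no difference was tested and every value describes a library. The Sox9-deficient groups differ in both stage and kind of deficiency, which cannot be told apart.

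The 2 Sox9-deficient lists were deposited under names that disagree with their sample titles, each carrying the other's group. Titles were followed and they are called the Sox9null-labelled and the Sox9cKO-labelled list. Comparisons within a stage are given in both assignments. The Sox9null-labelled list held 28419 peaks with a median width of 1778 bp, and the Sox9cKO-labelled list held 36937 peaks of 1332 bp. The control E11.5 list held 36045 peaks of 1141 bp, and the control E12.5 list held 32821 peaks of 1707 bp. Peaks covered 59.7 Mb in the Sox9null-labelled list, 60.4 Mb in the Sox9cKO-labelled list, 52.0 Mb in control E11.5 and 66.7 Mb in control E12.5. Covered lengths of single genes are given without scaling to these totals unless stated. How many reads lie behind each list is unknown, and the number and width of its peaks can move with that. In bulk tissue, fewer cells of a type and less acetylation per cell cannot be told apart.

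Some forkhead proteins, such as FOXA, can open closed chromatin. In mesenchyme the FoxC, FoxF, FoxD and FoxL groups act in skeletal, vascular and gut connective tissue, and FoxF genes are targets of hedgehog signalling. FoxO proteins are held out of the nucleus by insulin and AKT signalling, FoxP proteins are mostly repressors, and FoxM1 drives the entry into mitosis.

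Promoter sequences are shown for Foxp1, Foxf2 and Foxl2, where a start site was marked in 2 of the 4 lists, and for Foxc1, where the width of the peak over the start varied widely. Each runs 5′ to 3′ over 300 bases, from 250 before to 50 after the start, in RefSeq's GRCm38.p6 build. Capitals mark the CpG dinucleotides. Foxp1 has 3 listed start sites, all on the minus strand and named here in the order of their coordinates, so that the last is the most upstream. They lie at chr6:99028249-99028548, at chr6:99266466-99266765 and at chr6:99520944-99521243. The promoter of Foxc1 is at chr13:31806396-31806695, that of Foxf2 at chr13:31625566-31625865 and that of Foxl2 at chr9:98955357-98955656, all on the plus strand.
Foxp1, first site: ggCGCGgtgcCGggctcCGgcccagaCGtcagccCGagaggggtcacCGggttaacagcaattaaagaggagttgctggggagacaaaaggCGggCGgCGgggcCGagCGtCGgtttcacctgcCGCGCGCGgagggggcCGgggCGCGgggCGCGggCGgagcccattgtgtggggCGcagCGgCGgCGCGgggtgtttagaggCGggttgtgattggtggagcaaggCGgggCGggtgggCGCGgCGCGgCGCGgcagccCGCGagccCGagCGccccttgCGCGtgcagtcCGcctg
Foxp1, middle site: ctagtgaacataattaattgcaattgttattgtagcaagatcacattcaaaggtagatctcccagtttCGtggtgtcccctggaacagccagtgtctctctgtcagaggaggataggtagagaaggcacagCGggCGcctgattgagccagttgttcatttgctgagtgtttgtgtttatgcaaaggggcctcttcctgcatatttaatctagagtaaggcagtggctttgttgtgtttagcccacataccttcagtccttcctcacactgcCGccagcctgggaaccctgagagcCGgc
Foxp1, last site: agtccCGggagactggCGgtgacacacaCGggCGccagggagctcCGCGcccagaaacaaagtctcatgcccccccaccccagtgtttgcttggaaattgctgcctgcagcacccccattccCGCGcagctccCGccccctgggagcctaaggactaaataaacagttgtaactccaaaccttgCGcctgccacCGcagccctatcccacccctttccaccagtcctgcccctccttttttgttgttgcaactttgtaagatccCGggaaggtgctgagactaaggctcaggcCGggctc
Foxc1: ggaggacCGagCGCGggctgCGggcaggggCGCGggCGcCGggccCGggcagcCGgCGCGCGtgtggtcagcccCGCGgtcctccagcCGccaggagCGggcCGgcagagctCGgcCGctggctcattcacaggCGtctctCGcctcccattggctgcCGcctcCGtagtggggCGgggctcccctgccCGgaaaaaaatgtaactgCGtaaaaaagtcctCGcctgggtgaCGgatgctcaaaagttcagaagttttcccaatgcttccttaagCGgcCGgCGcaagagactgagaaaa
Foxf2: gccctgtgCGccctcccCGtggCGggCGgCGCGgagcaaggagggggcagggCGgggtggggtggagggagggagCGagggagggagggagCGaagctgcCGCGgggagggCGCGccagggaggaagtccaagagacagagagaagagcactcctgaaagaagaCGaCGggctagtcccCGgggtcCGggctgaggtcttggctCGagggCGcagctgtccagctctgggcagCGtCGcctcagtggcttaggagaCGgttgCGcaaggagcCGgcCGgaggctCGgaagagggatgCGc
Foxl2: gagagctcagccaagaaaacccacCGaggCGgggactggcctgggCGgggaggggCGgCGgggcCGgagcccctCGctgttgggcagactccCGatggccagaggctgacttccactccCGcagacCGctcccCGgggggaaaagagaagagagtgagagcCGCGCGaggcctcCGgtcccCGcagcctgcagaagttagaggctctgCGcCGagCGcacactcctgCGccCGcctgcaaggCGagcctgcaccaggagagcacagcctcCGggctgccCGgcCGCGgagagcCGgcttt

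The middle Foxp1 site held 5 CpG, the first 44 and the last 13. The observed over expected CpG ratio, which sets the CpG count against that from the C and G content, was 0.28 at the middle site, 1.11 at the first and 0.5 at the last. Of 21262 promoters of 17491 genes, 30.7% had a ratio at or below that of the middle site. Foxc1 had 32 CpG, and Foxf2 and Foxl2 had 27 each. All these promoters other than the middle and last Foxp1 sites are rich in CpG, with ratios of 0.71 or more.

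Coverage of a member was the length under peaks in a window of its gene body with 20 kb of flank at both ends. Of the 44 members, 27 had a peak in this window in the Sox9null-labelled list, 34 in the Sox9cKO-labelled list, 34 in control E11.5 and 27 in control E12.5. These are 61.4%, 77.3%, 77.3% and 61.4% of members, where all genes gave 68.4%, 73.7%, 73.3% and 69.8% in the same order of lists. The median member had 1787 bp in the Sox9null-labelled list, 2637 bp in the Sox9cKO-labelled list, 2598 bp in control E11.5 and 2099 bp in control E12.5. In all, 9 of 44 members, 20.5%, had no peak in the window in any list, against 23.9% of all genes. Among them were Foxa2, Foxb1, Foxb2, Foxd1, Foxd3, Foxd4, Foxi1 and Foxi2, which include factors of the endoderm (Foxa2) and the neural crest (Foxd3).

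**Figure D1:**
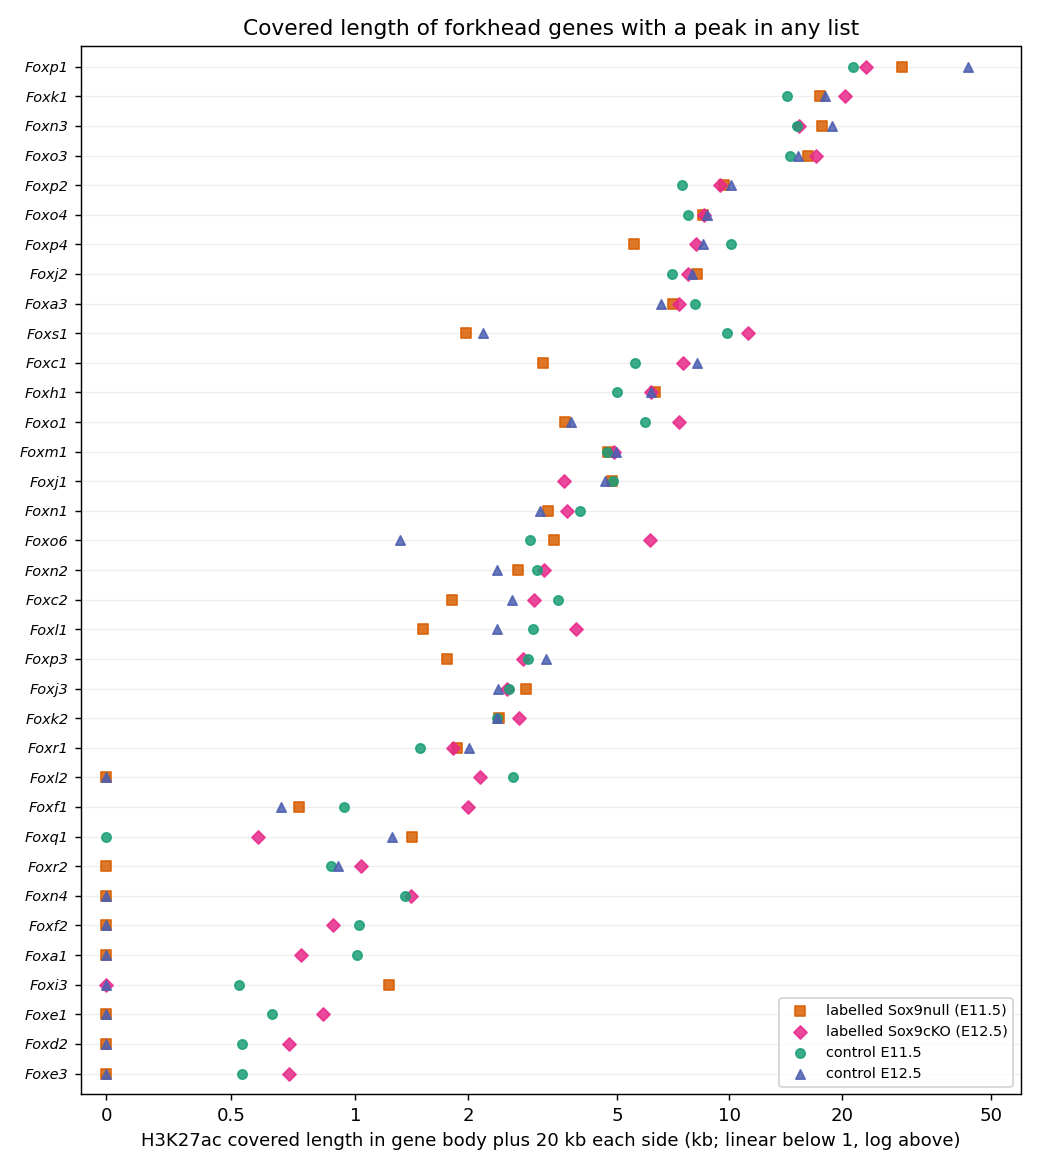
Length covered by H3K27ac peaks (kb, linear below 1 kb and logarithmic above) in the gene body and 20 kb of flank at both ends, for the 35 forkhead genes with a peak in any list. Each symbol is 1 library: orange squares the Sox9null-labelled list, pink diamonds the Sox9cKO-labelled list, green circles control E11.5 and blue triangles control E12.5. Foxp1 reached 43.4 kb in control E12.5, and Foxs1 splits into 2 lists near 2 kb and 2 near 10 kb.

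Gene ends divided the family into 3 sets. A peak within 1000 bp of either end was found in all 4 lists at 17 members, 38.6%, against 50% of all genes. These were Foxa3, Foxc1, Foxh1, Foxj1, Foxj2, Foxj3, Foxk1, Foxk2, Foxm1, Foxn2, Foxn3, Foxo1, Foxo3, Foxo4, Foxp1, Foxp2 and Foxp4. At 6 of them (Foxa3, Foxh1, Foxj1, Foxj3, Foxm1 and Foxo4) the widest such peak also touched the end of another gene in 1 or more lists, so it cannot be given to the member alone. No list had a gene-end peak at 20 members, 45.5%, against 39.9% of all genes. The other 7 members, 15.9% against 10.1% of all genes, were marked at an end in 1 to 3 lists: Foxc2, Foxd2, Foxf1, Foxf2, Foxl2, Foxo6 and Foxs1.

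The widest gene-end peaks, ranked on the mean of the 4 lists, were at Foxp2, Foxp1, Foxo3, Foxc1 and Foxn3. At Foxp2, a repressor known for its part in speech and lung development, the peak spanned 4824 bp in the Sox9null-labelled list, 4818 bp in the Sox9cKO-labelled list, 4758 bp in control E11.5 and 5553 bp in control E12.5. At Foxp1 it spanned 4336 bp in the Sox9null-labelled list, 4321 bp in the Sox9cKO-labelled list, 4183 bp in control E11.5 and 5410 bp in control E12.5. Both were widest in bp in control E12.5, a list with wider peaks in general than control E11.5. Ranked within their lists, they did not stand higher there. Foxp2 was at the 98.8 percentile of width in control E11.5 and 97.6 in control E12.5, and Foxp1 at 98.1 and 97.4. At Foxo3, an insulin-regulated factor of stress response and survival, it spanned 4135 bp in the Sox9null-labelled list, 4670 bp in the Sox9cKO-labelled list, 4211 bp in control E11.5 and 4353 bp in control E12.5. At Foxn3, a repressor linked to the cell-cycle checkpoint, it spanned 3937 bp in the Sox9null-labelled list, 3706 bp in the Sox9cKO-labelled list, 3896 bp in control E11.5 and 4512 bp in control E12.5. These 4 peaks stood at or above the 93.5 percentile of width in every list. Over all members with one, the median gene-end peak lay at the 81.1 percentile of width in the Sox9null-labelled list, 84.4 in the Sox9cKO-labelled list, 87.0 in control E11.5 and 81.9 in control E12.5. All genes gave 65.1, 76.0, 77.1 and 67.3 in the same order of lists. Their median score percentiles were closer to those of all genes, with 78.5, 84.0, 81.6 and 81.3 for members and 75.6, 82.3, 81.7 and 78.3 for all genes. At the median, the marked members therefore had wider gene-end peaks than all genes with one, while their scores ranked much like those at other genes. Not every marked member had a wide peak. The lowest member stood at the 35.6 percentile of width in the Sox9null-labelled list, 13.9 in the Sox9cKO-labelled list, 3.7 in control E11.5 and 8.3 in control E12.5.

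**Figure D2:**
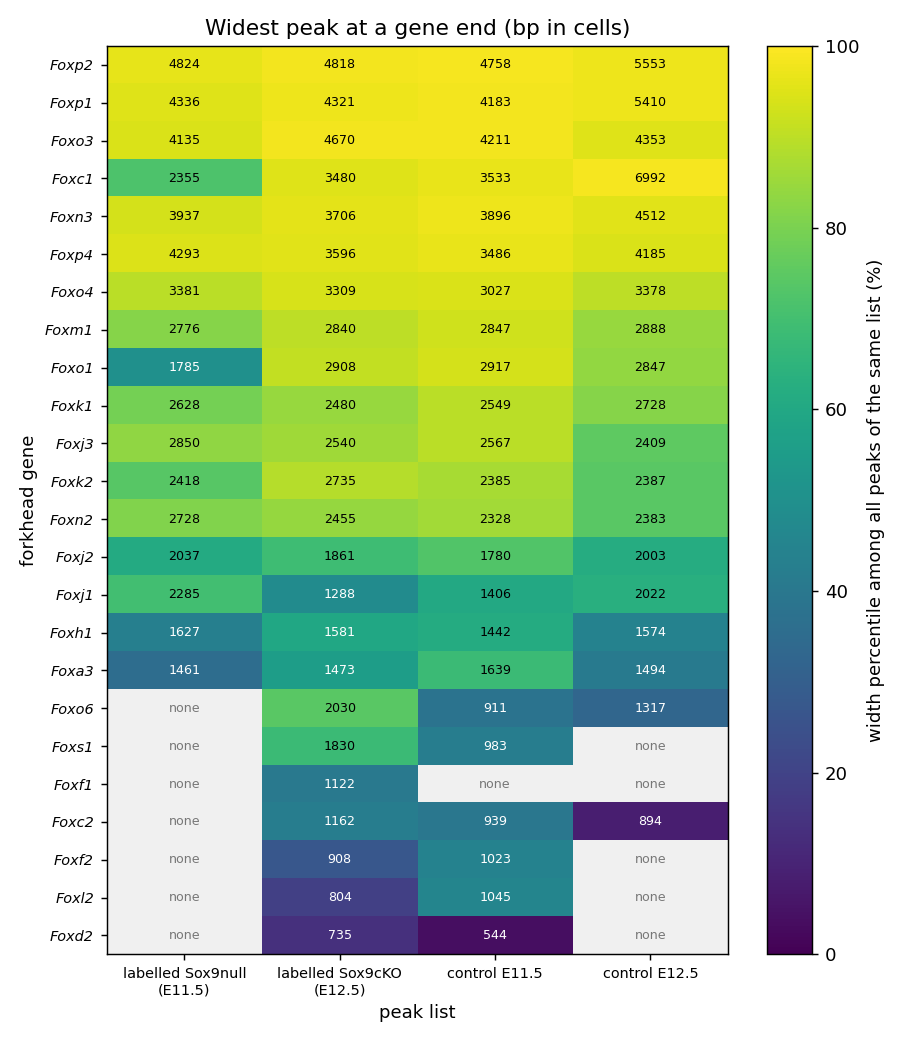
Widest H3K27ac peak within 1000 bp of a gene end for the 24 forkhead genes with such a peak in any list, by list (columns). Numbers are widths in bp, colour is the width percentile (%) among all peaks of the same list, and grey cells have no peak. Foxp1, Foxp2, Foxp4, Foxo3 and Foxn3 are yellow in all columns, and the lower rows are marked mainly in the Sox9cKO-labelled list and control E11.5.

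Foxc1, a regulator of mesenchyme in skull, eye and vessel formation, had a gene-end peak whose width varied widely. The widest spanned 2355 bp in the Sox9null-labelled list, 3480 bp in the Sox9cKO-labelled list, 3533 bp in control E11.5 and 6992 bp in control E12.5. A second gene-end peak spanned 1928 bp in the Sox9cKO-labelled list and 1487 bp in control E11.5, where control E12.5 had 1 peak over the whole stretch. All gene-end peaks together covered 2355 bp in the Sox9null-labelled list and 5408 bp in the Sox9cKO-labelled list, against 5020 bp in control E11.5 and 6992 bp in control E12.5. Acetylation covered 57.3% of the gene body in the Sox9null-labelled list and 80.4% in the Sox9cKO-labelled list, against 75.2% in control E11.5 and the whole of it in control E12.5. Its width percentile was 72.1 in the Sox9null-labelled list and 98.8 in control E12.5. Control E12.5 thus stood highest and the Sox9null-labelled list lowest.

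Foxc1 shares its stretch of chromosome 13 with Foxf2 and Foxq1. No protein-coding gene lies in the 175.2 kb between Foxf2 and Foxc1. That stretch held 5.39 kb of peaks in the Sox9null-labelled list, 4.52 kb in the Sox9cKO-labelled list, 3.07 kb in control E11.5 and 10.7 kb in control E12.5. Its main group of peaks lay about 90 kb before Foxc1. The region at chr13:31709263-31712117, 94.5 kb before the gene, carried 1614 bp in the Sox9null-labelled list, none in the Sox9cKO-labelled list, 739 bp in control E11.5 and 2855 bp in control E12.5. A region 44.9 kb before Foxc1 was marked in all 4 lists, with 1768 bp in the Sox9null-labelled list, 1239 bp in the Sox9cKO-labelled list, 918 bp in control E11.5 and 1447 bp in control E12.5. Control E12.5 again had the most coverage between these genes and control E11.5 the least.

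At Foxf2, a hedgehog-responsive gene of palate, gut and vessel-wall mesenchyme, the promoter was marked by 908 bp in the Sox9cKO-labelled list and 1023 bp in control E11.5. Neither the Sox9null-labelled list nor control E12.5 had any peak in the Foxf2 window. Foxq1, a gene known from hair and stomach development, had no gene-end peak. A peak about 16 kb from Foxq1, at chr13:31576860-31578271, spanned 1412 bp in the Sox9null-labelled list and 1251 bp in control E12.5, and a separate peak of 608 bp lay nearby in the Sox9cKO-labelled list. Control E11.5 had none there.

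The second forkhead cluster, on chromosome 8, holds Foxf1, Foxc2 and Foxl1. All 3 windows include the Mthfsd gene-end peak at chr8:121107200-121109197, so their coverage is not independent. This peak spanned 1815 bp in the Sox9null-labelled list, 1846 bp in the Sox9cKO-labelled list, 1916 bp in control E11.5 and 1721 bp in control E12.5. Foxc2, which acts in vertebral and lymphatic development, had its own gene-end peak of 1162 bp in the Sox9cKO-labelled list, 939 bp in control E11.5 and 894 bp in control E12.5, and none in the Sox9null-labelled list. Foxf1, a hedgehog target in lung and gut mesenchyme, was marked at an end only in the Sox9cKO-labelled list, over 1122 bp. Foxl1, a gene of the connective tissue under the gut epithelium, had no gene-end peak in any list. Its window held 1.51 kb in the Sox9null-labelled list, 3.90 kb in the Sox9cKO-labelled list, 2.98 kb in control E11.5 and 2.38 kb in control E12.5. All of this coverage was the Mthfsd peak in the Sox9null-labelled list, and the Mthfsd and Foxc2 peaks in control E12.5.

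Foxl2, Foxd2 and Foxs1 were marked at their ends in some lists and not in others. Foxl2 is a factor of the ovary and eyelid. Its promoter, printed above, was marked by 804 bp in the Sox9cKO-labelled list and 1045 bp in control E11.5. A region 14397 bp beyond the gene, at chr9:98972524-98973939, was marked by 1353 bp in the Sox9cKO-labelled list and 1037 bp in control E11.5. The Sox9null-labelled list and control E12.5 had no peak at either place. Foxd2, which acts in the mesenchyme of kidney and face, carried a peak of 735 bp in the Sox9cKO-labelled list and of 544 bp in control E11.5. These lie within the lowest 8.0% of scores of their lists, and they are also all that the window of its neighbour Foxe3, a lens gene, holds.

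Foxs1, known from pericytes and sensory neurons, lies on chromosome 2 at chr2:152931898-152933208. Its window held 1.97 kb in the Sox9null-labelled list and 11.2 kb in the Sox9cKO-labelled list, against 9.86 kb in control E11.5 and 2.19 kb in control E12.5. Most of it was a region between Mylk2, a myosin kinase gene of muscle, and Foxs1, at chr2:152923327-152929047, which touches an end of Mylk2. Peaks covered 1969 bp of this region in the Sox9null-labelled list, 5693 bp in the Sox9cKO-labelled list, 5394 bp in control E11.5 and 2186 bp in control E12.5. Gene-end peaks at Foxs1 itself were found in the Sox9cKO-labelled list and in control E11.5 alone, with widths of up to 1830 bp in the Sox9cKO-labelled list and 983 bp in control E11.5. The window also holds Dusp15 and Ttll9, so its coverage cannot be given to Foxs1 alone.

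At gene ends, Foxd2, Foxf2, Foxl2 and Foxs1 were thus marked in the Sox9cKO-labelled list and control E11.5 alone. These are 4 of 44 members, 9.09%, against 2.81% of all genes. Their gene-end peaks ranked low or midway by score. In this order of genes, the highest-scored stood at percentiles of 3.9, 27.6, 37.9 and 55.4 in the Sox9cKO-labelled list. In control E11.5 they stood at 8.0, 48.2, 46.5 and 28.5, all in the lower 50% of scores. No member was marked in the Sox9null-labelled list and control E12.5 alone, against 0.201% of all genes, in both deficient lists alone, against 0.128%, or in both controls alone, against 0.187%. Of 152 acetylated regions in the members' windows, 56 were found in all 4 lists, 36.8% against 40.1% of 49367 regions. The Sox9cKO-labelled list and control E11.5 alone shared 16 regions, 10.5% against 6.5%, and the Sox9null-labelled list and control E12.5 alone shared 4, 2.6% against 3.7%. Both deficient lists alone shared 1 region, 0.7% against 1.2%, and both controls alone shared 3, 2.0% against 1.6%.

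**Figure D3:**
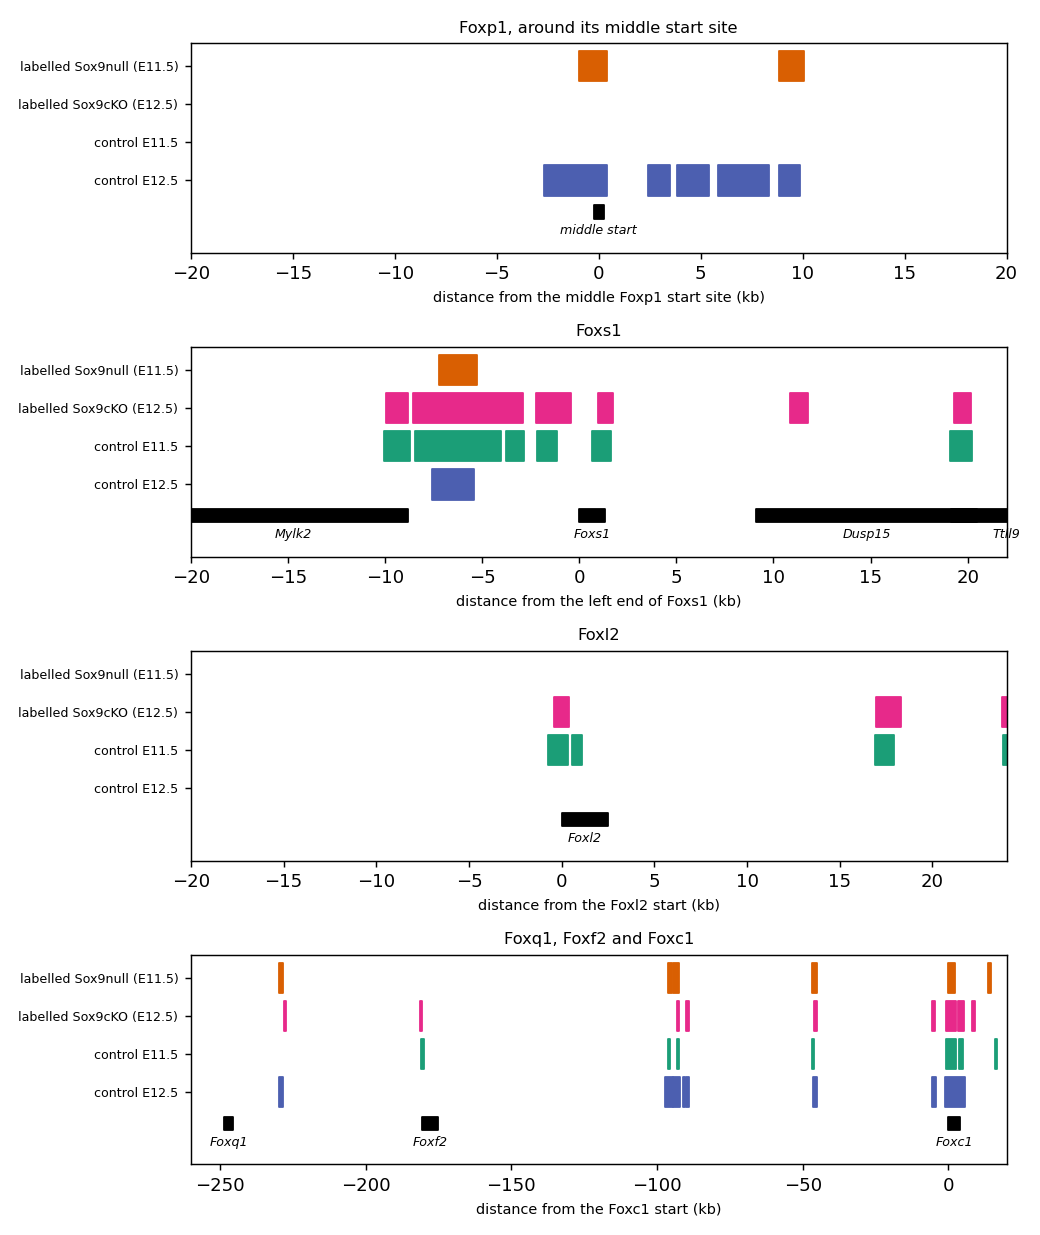
H3K27ac peaks (coloured boxes, 1 row for each list) against distance in kb from the middle Foxp1 start site, the left end of Foxs1, the Foxl2 start and the Foxc1 start; black boxes are genes and, for Foxp1, the start site. The Foxp1 site is covered in the Sox9null-labelled list (orange) and control E12.5 (blue), the Foxl2 peaks are in the Sox9cKO-labelled list (pink) and control E11.5 (green), and the wide Foxc1 peak is in control E12.5.

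Foxp1, a repressor that acts in heart, lymphocyte and motor neuron development, had the most coverage of the family. It spans 597405 bp on chromosome 6. Its window held 29.0 kb in the Sox9null-labelled list and 23.2 kb in the Sox9cKO-labelled list, against 21.4 kb in control E11.5 and 43.4 kb in control E12.5. The first and last start sites were marked in all 4 lists. The middle site, poor in CpG, was covered by a peak of 1351 bp in the Sox9null-labelled list and of 3061 bp in control E12.5, with none in the Sox9cKO-labelled list or in control E11.5. It lies in a run of 5 neighbouring regions absent from both of these lists, over 12.7 kb at chr6:99263857-99276574, picked after the values were seen. This block held 2.56 kb in the Sox9null-labelled list and 9.32 kb in control E12.5 and no peak in the other 2 lists. Outside the block, Foxp1 had 26.4 kb in the Sox9null-labelled list and 23.2 kb in the Sox9cKO-labelled list, against 21.4 kb in control E11.5 and 34.1 kb in control E12.5. Control E12.5 stood above the other 3 lists with and without the block.

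The other FoxP genes differed in where their coverage lay. Foxp2 had 9.69 kb in the Sox9null-labelled list and 9.41 kb in the Sox9cKO-labelled list, against 7.46 kb in control E11.5 and 10.1 kb in control E12.5, most of it at a gene end and in 1 intragenic region. Foxp4, a repressor of lung and gut epithelium, had 5.57 kb in the Sox9null-labelled list and 8.16 kb in the Sox9cKO-labelled list, against 10.1 kb in control E11.5 and 8.51 kb in control E12.5. Its gene-end peak of 4293 bp in the Sox9null-labelled list, 3596 bp in the Sox9cKO-labelled list, 3486 bp in control E11.5 and 4185 bp in control E12.5 ranked at or above the 95.8 percentile of score in all of them. Away from that peak, Foxp4 had 1272 bp in the Sox9null-labelled list and 4564 bp in the Sox9cKO-labelled list, against 6638 bp in control E11.5 and 4329 bp in control E12.5, so there the groups overlap. A region, chr17:47862823-47864902, had no peak in either deficient list, against 724 bp in control E11.5 and 2080 bp in control E12.5. The control E11.5 peak scored 51.68, where the lowest score of that list was 50.03. Regions in both controls alone were also found at Foxp1 and Foxn3. Foxp3, the factor of regulatory T cells, had 1.76 kb in the Sox9null-labelled list and 2.80 kb in the Sox9cKO-labelled list, against 2.90 kb in control E11.5 and 3.23 kb in control E12.5. It had no gene-end peak of its own, and all the coverage in its window lay at the ends of Ppp1r3f and Ccdc22.

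Among the FoxO genes, Foxo3 and Foxo6 had more coverage in both deficient lists than in both controls. Foxo3 had 16.3 kb in the Sox9null-labelled list and 17.0 kb in the Sox9cKO-labelled list, against 14.5 kb in control E11.5 and 15.2 kb in control E12.5. Its peaks found in the Sox9cKO-labelled list alone spanned 515 to 800 bp, at score percentiles of 0.7 to 13.3. Its deficient mean exceeded its control mean by 1.771 kb. In other ways of counting this ran from 0.133 kb with equal numbers of top peaks to 1.735 kb with 5 kb of flank. Foxo6, known from the brain, had 3.39 kb in the Sox9null-labelled list and 6.11 kb in the Sox9cKO-labelled list, against 2.92 kb in control E11.5 and 1.32 kb in control E12.5. A Foxo6 region at chr4:120252551-120253833, 13244 bp from the gene, was marked in both deficient lists alone, by 1283 bp in the Sox9null-labelled list and 909 bp in the Sox9cKO-labelled list. It is the only region of this kind among the 152 of the family. Its peaks stood at score percentiles of 19.4 in the Sox9null-labelled list and 21.9 in the Sox9cKO-labelled list. No Foxo6 peak of the Sox9null-labelled list ranked above 19.4, and Foxo6 coverage in control E11.5 included peaks at the 0.1 percentile. Foxo6 had gene-end peaks of 2030 bp in the Sox9cKO-labelled list, 911 bp in control E11.5 and 1317 bp in control E12.5, and none in the Sox9null-labelled list.

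Foxo1, the main FoxO factor of the insulin response, had 3.64 kb in the Sox9null-labelled list and 7.32 kb in the Sox9cKO-labelled list, against 5.93 kb in control E11.5 and 3.76 kb in control E12.5. Its gene-end peak spanned 1785 bp in the Sox9null-labelled list, 2908 bp in the Sox9cKO-labelled list, 2917 bp in control E11.5 and 2847 bp in control E12.5. In addition, 2 intragenic Foxo1 regions were marked in the Sox9cKO-labelled list and control E11.5 alone. Foxo4, another insulin-regulated member, varied little, with 8.50 kb in the Sox9null-labelled list, 8.53 kb in the Sox9cKO-labelled list, 7.72 kb in control E11.5 and 8.71 kb in control E12.5.

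Foxk1, Foxk2, Foxm1 and Foxh1 had gene-end peaks in all lists. Foxk1, a repressor of autophagy genes, had 17512 bp in the Sox9null-labelled list and 20329 bp in the Sox9cKO-labelled list, against 14275 bp in control E11.5 and 18004 bp in control E12.5. Foxk2, its close relative, had 1 region in its window, a promoter peak of 2418 bp in the Sox9null-labelled list, 2735 bp in the Sox9cKO-labelled list, 2385 bp in control E11.5 and 2387 bp in control E12.5. Foxm1, the driver of mitotic genes, lay between 4.72 and 4.97 kb. Foxh1, the partner of SMAD2 in Nodal signalling, had 6337 bp in the Sox9null-labelled list and 6178 bp in the Sox9cKO-labelled list, against 5000 bp in control E11.5 and 6173 bp in control E12.5. Its gene-end peaks also touch the ends of Kifc2 and Ppp1r16a.

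In the rest of the J, N and A groups, Foxj1, the regulator of motile cilia, lay between 3.61 and 4.89 kb, Foxj2 between 7.01 and 8.19 kb and Foxj3 between 2.41 and 2.85 kb. Foxn2 lay between 2.38 and 3.19 kb, Foxn3 between 15.1 and 18.8 kb, and Foxa3, a liver and gut factor next to Sympk, between 6.55 and 8.08 kb. The windows of Foxn1, the thymus epithelial factor, and of Foxr1 held 3.11 to 3.98 kb and 1.49 to 2.01 kb with no peak at the gene's own ends. At Foxn4, a gene of the retina and spinal cord, the window held 1.41 kb in the Sox9cKO-labelled list and 1.35 kb in control E11.5 and nothing in the other 2 lists. Foxa1, Foxe1, Foxe3, Foxi3 and Foxr2 never exceeded 1.23 kb.

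The first comparison asked which members lay on 1 side in both deficient lists, whichever list belongs to which stage. Foxp3 and Foxp4 were lower in both deficient lists than in both controls, 4.55% of members against 4.86% of all genes. Foxh1, Foxk2, Foxo3 and Foxo6 were higher in both, 9.09% against 12.2%. Both shares were near or below those of all genes, and the median difference between the deficient mean and the control mean was 0.0 kb for members and for all genes. The gaps between the groups were small, from 5 bp at Foxh1 and 31 bp at Foxk2 to 1022 bp at Foxo3. None of the 6 members kept its separation under all 5 other ways of counting coverage. Foxk2 kept it under 4, Foxp3 under 3, Foxh1, Foxp4 and Foxo6 under 2, and Foxo3 under 1.

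The comparison at E11.5 by label set the Sox9null-labelled list against control E11.5. A change was called where the larger value was at least 1000 bp and at least 1.5 times the smaller. Coverage was lower at 11 members, 25.0% against 7.76% of all genes: Foxa1, Foxc1, Foxc2, Foxf2, Foxl1, Foxl2, Foxn4, Foxo1, Foxp3, Foxp4 and Foxs1. It was higher at Foxi3 and Foxq1, 4.55% against 5.98%. With the deficient lists exchanged, as their deposited names read, the Sox9cKO-labelled list stood against control E11.5. No member was then lower, against 1.62% of all genes, and Foxf1 and Foxo6 were higher, 4.55% against 7.44%. The loss at 11 forkhead genes therefore depends on which deficient list is the E11.5 one.

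The comparison at E12.5 by label set the Sox9cKO-labelled list against control E12.5. Foxp1 and Foxq1 were lower, 4.55% against 5.75% of all genes. Foxf1, Foxl1, Foxl2, Foxn4, Foxo1, Foxo6 and Foxs1 were higher, 15.9% against 10% of all genes. With the lists exchanged, the Sox9null-labelled list stood against control E12.5, and Foxc1, Foxl1, Foxp3 and Foxp4 were lower, 9.09% against 6.12%, while Foxi3 and Foxo6 were higher, 4.55% against 2.19%. Foxc1 had 3.17 kb in the Sox9null-labelled list, against 8.19 kb in control E12.5 and 5.60 kb in control E11.5. Foxc1, Foxl1, Foxp3 and Foxp4 were lower, and Foxi3 higher, in the Sox9null-labelled list against either control. Foxf1 and Foxo6 were higher in the Sox9cKO-labelled list against either control. The share of all genes called against either control in this way was not counted, so no excess in the family is read from these. By label, Foxl1, Foxl2, Foxn4, Foxo1, Foxq1 and Foxs1 moved in opposite ways at E11.5 and at E12.5, 13.6% of members against 6.41% of all genes.

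Between the controls, E12.5 was lower than E11.5 at Foxa1, Foxf2, Foxl2, Foxn4, Foxo1, Foxo6 and Foxs1, 15.9% of members against 5.74% of all genes. It was higher at Foxp1 and Foxq1, 4.55% against 8.66%. Fold changes of control E12.5 over control E11.5 were 0.222 at Foxs1, 0.635 at Foxo1, 0.45 at Foxo6 and 2.02 at Foxp1. Foxa1, Foxf2, Foxl2 and Foxn4 had no peak in the window in control E12.5, and Foxq1 had none in control E11.5, so no fold is given for them. The comparisons above share these control lists.

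The remaining pairing of the lists was added after the data were seen. The Sox9null-labelled list and control E12.5 both lay below the Sox9cKO-labelled list and control E11.5 at 15 members, 34.1% against 21.0% of all genes. These were Foxa1, Foxa3, Foxc2, Foxd2, Foxe1, Foxe3, Foxf1, Foxf2, Foxl1, Foxl2, Foxn1, Foxn2, Foxn4, Foxo1 and Foxs1. They are not all separate loci. Foxd2 and Foxe3 are called from the same region, and the windows of Foxf1, Foxc2 and Foxl1 share the Mthfsd peak. Without members of shared windows the count was 10, and all genes were not recounted in this way. The Sox9null-labelled list and control E12.5 lay above at Foxj2, Foxn3, Foxp1, Foxp2, Foxq1 and Foxr1, 13.6% against 15.6%. In the deposited names this pairing sets E12.5 lists against E11.5 lists. By the titles, the E12.5 lists lay below the E11.5 lists at Foxi3, Foxj1 and Foxj3, 6.82% against 2.72%, and above at Foxc1, Foxk1, Foxm1, Foxo4 and Foxr2, 11.4% against 16.5%. In the added pairing, Foxs1, Foxp1 and Foxc2 kept their separation under all 5 other ways of counting coverage, with gaps of 7670 bp, 5810 bp and 393 bp.

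**Figure D4:**
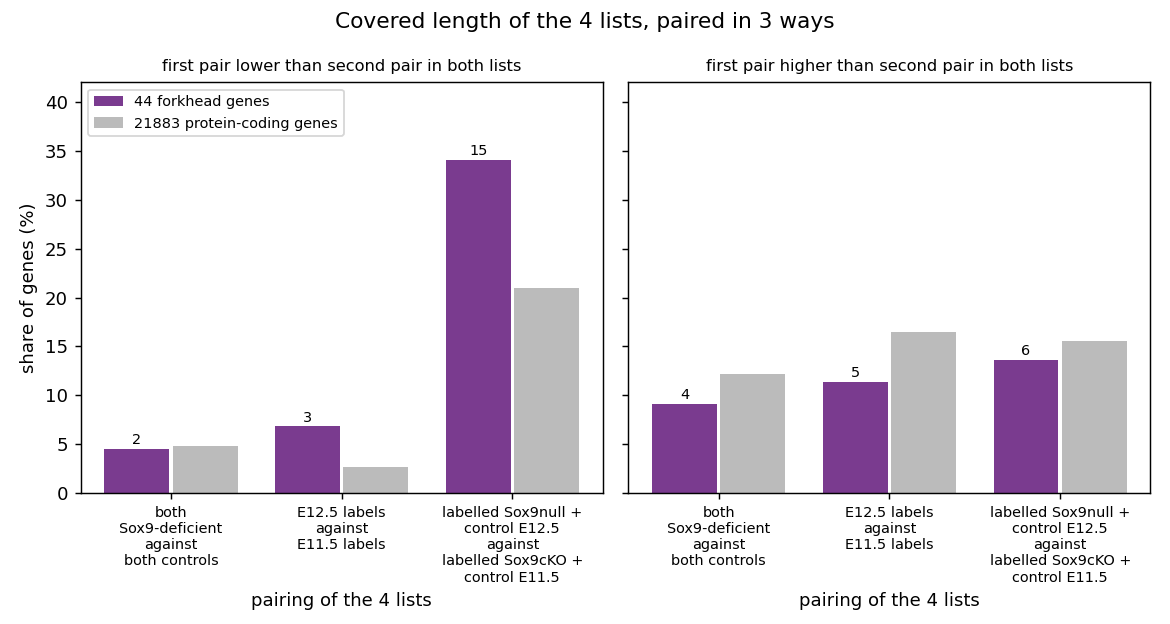
Share of genes (%) for which both lists of the first pair lie below (left panel) or above (right panel) both lists of the second pair in covered length, for the 3 ways of pairing the 4 lists. Purple bars are the 44 forkhead genes, with their number on top, and grey bars all 21883 protein-coding genes. The bar of 15 forkhead genes, 34.1%, belongs to the pairing of the Sox9null-labelled list with control E12.5. Members with shared windows are each counted in it.

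In the same pairing, the summed coverage of endothelial, muscle, and erythroid and macrophage markers was lower in the Sox9null-labelled list and control E12.5. Endothelial markers were covered over 16.6 kb in the Sox9null-labelled list and 14.8 kb in control E12.5, against 21.6 kb in the Sox9cKO-labelled list and 22.7 kb in control E11.5, with gene-end peaks in the same order at 1, 1, 5 and 3 of 8 genes and Emcn and Sox17 at 0 in all lists. Muscle markers were covered over 3.8 kb in the Sox9null-labelled list and 6.1 kb in control E12.5, against 19.3 kb in the Sox9cKO-labelled list and 13.8 kb in control E11.5, with gene-end peaks at 2, 2, 4 and 4 of 7 genes and Myod1 at 0. Erythroid and macrophage markers were covered over 14.8 kb in the Sox9null-labelled list and 12.3 kb in control E12.5, against 28.6 kb in the Sox9cKO-labelled list and 22.2 kb in control E11.5, with gene-end peaks at 1, 1, 5 and 3 of 7 genes and none at 0 in all lists. Of single genes, 4 of 8 endothelial markers, 3 of 7 muscle markers and 5 of 7 erythroid and macrophage markers were lower in both lists of that pair than in both others. Of all genes, 21.0% were lower in this way. Tek, an endothelial receptor, went the other way, with 3.51 kb in the Sox9null-labelled list and 2.72 kb in control E12.5, against 1.85 kb in the Sox9cKO-labelled list and 0.748 kb in control E11.5. Tbx5, the forelimb factor, had 0 kb in the Sox9null-labelled list and 3.76 kb in control E12.5, against 32.6 kb in the Sox9cKO-labelled list and 31.7 kb in control E11.5. Tbx4, the hindlimb factor, had 38.1 kb in the Sox9null-labelled list and 34.4 kb in control E12.5, against 31.9 kb in the Sox9cKO-labelled list and 29.7 kb in control E11.5. The part of other cells or of limb type in the forkhead values was not tested. Limb bud mesenchyme markers were covered over 274.6 to 301.4 kb in all, and of the 12 Tbx5 alone was at 0, in the Sox9null-labelled list. Of these 12, 3 were lower and 7 higher in both lists of the added pair, where 21.0% and 15.6% of all genes were. The 10 surface ectoderm markers (Krt14 at 0) were covered over 19.7 kb in the Sox9null-labelled list and 26.6 kb in control E12.5, against 26.8 kb in the Sox9cKO-labelled list and 21.9 kb in control E11.5, which overlap. Their gene-end peaks in the same order were at 1, 2, 5 and 6 genes. The 6 nerve and glia markers held 12.2 to 13.1 kb. Of these 6, 3 were lower and 2 higher in both lists of the added pair. The counts were 2 lower and 2 higher for surface ectoderm, and 1 lower and 1 higher for early cartilage. The 6 early cartilage markers (Matn1 at 0) held 79.0 kb in the Sox9null-labelled list and 61.9 kb in the Sox9cKO-labelled list, against 73.6 kb in control E11.5 and 115.7 kb in control E12.5. Sox9 itself had 7.76 kb in the Sox9null-labelled list and 6.90 kb in the Sox9cKO-labelled list, against 7.80 kb in control E11.5 and 8.77 kb in control E12.5. Acetylation around the gene does not show whether its coding part was deleted.

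The other genes of the FoxO pathway, from the insulin receptor through AKT to FoxO targets, moved in both directions. Of 43 genes, 7 were lower and 6 higher in both deficient lists than in both controls, where 4.86% and 12.2% of all genes were, with a median difference of -0.048 kb against 0.0 kb over all genes. The largest losses on the mean were at Igf1r, the IGF1 receptor, and Pik3cb, a PI3-kinase subunit. Igf1r had 18.7 kb in the Sox9null-labelled list and 21.8 kb in the Sox9cKO-labelled list, against 21.6 kb in control E11.5 and 25.6 kb in control E12.5, so its groups overlap. Pik3cb had 0 kb in the Sox9null-labelled list and 1.22 kb in the Sox9cKO-labelled list, against 1.75 kb in control E11.5 and 2.26 kb in control E12.5. The largest gains were at Sgk1, a kinase that phosphorylates FoxO, and Bnip3, a mitophagy gene. Sgk1 had 13.8 kb in the Sox9null-labelled list and 8.42 kb in the Sox9cKO-labelled list, against 6.89 kb in control E11.5 and 12.9 kb in control E12.5, which overlap. Bnip3 had 3.90 kb in the Sox9null-labelled list and 5.13 kb in the Sox9cKO-labelled list, against 3.82 kb in control E11.5 and 2.81 kb in control E12.5.

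Of 27 partners and regulators of forkhead proteins, 5 were lower in both deficient lists than in both controls, among them Runx2, Sox9, Ctbp1 and Nr3c1, and Sin3a was higher. Of all genes, 4.86% were lower and 12.2% higher. The median difference of the 27 was 0.06 kb, against 0.0 kb over all genes. The largest losses were at Gli3 and Runx2, the largest gains at Gli2 and Tle2. Gli3, a hedgehog effector that is mostly a repressor, had 19.6 kb in the Sox9null-labelled list and 16.5 kb in the Sox9cKO-labelled list, against 14.7 kb in control E11.5 and 28.6 kb in control E12.5. Runx2, the osteoblast and cartilage maturation factor, had 10.2 kb in the Sox9null-labelled list and 9.76 kb in the Sox9cKO-labelled list, against 12.0 kb in control E11.5 and 13.9 kb in control E12.5. Runx2 was the one of these whose groups did not overlap. Gli2, a hedgehog activator, had 23.2 kb in the Sox9null-labelled list and 31.1 kb in the Sox9cKO-labelled list, against 25.2 kb in control E11.5 and 26.2 kb in control E12.5. Tle2, a co-repressor, had 17.0 kb in the Sox9null-labelled list and 17.3 kb in the Sox9cKO-labelled list, against 14.2 kb in control E11.5 and 17.4 kb in control E12.5.

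Promoter sequences were matched for 28 of the 44 members, with 33 start sites. The median CpG ratio was 0.68 for these and 0.57 over all promoters. It was 0.88 for the 10 members with a gene-end peak in all 4 lists, 0.76 for the 3 marked in 1 to 3 lists and 0.58 for the 15 marked in none. The forkhead core GTAAACA or its complement TGTTTAC was found in 1 of 33 member promoters, that of Foxa1, which is 3.0%, as over all promoters. The SOX motifs ACAATG and AACAAT, or their complements CATTGT and ATTGTT, were in 3 of 33, 9.1%, against 16.3% of all promoters. The letters of ACAATG and AACAAT can overlap. The motif CATTGT was in the first and ATTGTT in the middle Foxp1 promoter. A match is a match of letters in this window and was not tied to binding.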

How the data were processed

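H3K27ac was measured by chromatin immunoprecipitation and sequencing in mouse limb buds. Each deposited list gives the position of a peak and a score of the authors' own. What this score measures is not stated, so it served only to rank or filter peaks inside 1 list. The submitters' processing notes list the build mm10 and the tools CASAVA 1.8 and deepTools, and peak names in the deposited lists point to MACS. For its settings, the aligner and any use of inputs, no source used here gives details. Each library has its own list. Depth in reads is unknown, so no interval is given.

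Genes and promoters came from RefSeq tables of GRCm38.p6. The gene table has no strand, so a gene-end peak is one within 1000 bp of either end, and start sites were known for 28 members. Covered bp were summed over each gene with 20 kb of flank at both ends. No test was run. Values were given for members separated between both deficient lists and both controls, for those whose gene-end state varied, and for the 5 widest gene-end peaks. Other genes named were the 2 largest gains and losses of each fixed list, Sox9 and neighbours in the clusters. Regions, blocks and markers named beyond these were chosen after their values were seen. The members and lists were chosen with earlier results of these data known. Alternatives were the upper 50% of scores, equal numbers of top peaks, windows of 5 or 100 kb, scaling to the list total, members with shared windows left out, other gene-end rules, exchanged deficient lists and leaving out each list. The added pairing was tried under the same settings. Counting was tested on simulated data. Software was matplotlib 3.10.9, scipy 1.17.1, pandas 2.3.3 and numpy 2.4.6 under Python 3.11.15. A few genes of the family and lists are not reported here.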

Additional observations from a re-analysis of the deposited data

Results flagged for a closer look

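At 6 members, 13.6% against 6.41% of all genes, coverage moved in opposite ways in the comparison at E11.5 and in the comparison at E12.5 by label. The difference between the comparisons was not tested, with 1 library a group. Foxs1 differed by -7.89 kb in the Sox9null-labelled list against control E11.5 and by 9.01 kb in the Sox9cKO-labelled list against control E12.5. Foxl2 differed by -2.63 kb in the first and 2.16 kb in the second, Foxo1 by -2.29 kb and 3.56 kb, Foxl1 by -1.47 kb and 1.51 kb, and Foxn4 by -1.35 kb and 1.41 kb. Foxq1 moved the other way, by 1.41 kb in the first and -0.64 kb in the second. With the deficient lists exchanged, the Sox9cKO-labelled list had 1.14 times the Foxs1 coverage of control E11.5, and the Sox9null-labelled list 0.901 times that of control E12.5. For Foxo1 these were 1.23 and 0.967 times, and for Foxl1 1.31 and 0.635 times. Of these exchanged folds, the 0.635 of Foxl1 alone was called at 1.5-fold, so none of Foxs1, Foxo1 and Foxl1 had opposite calls there. Exchanged, Foxl2 had 0.82 times and Foxn4 1.04 times the coverage of control E11.5, with no peak in the Sox9null-labelled list or control E12.5. Foxq1 had no peak in control E11.5, and its coverage in the Sox9null-labelled list was 1.13 times that of control E12.5.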

How the results depend on the processing

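Coverage moves with depth, which is unknown, and with how widely each list was called. With 1 library a group, nothing measures the spread between embryos. Windows of clustered members share bases.

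The 2 members lower in each deficient list became 1 with the upper 50% of scores and 1 after scaling, and 4 with 5 kb or 100 kb on each side; leaving out each list gave 3 to 9. The 4 members higher in each became 8 to 15 when a list was left out. Fewer lists make such counts rise by construction. The median difference of 0.0 kb became -0.0437 kb with 100 kb, and 0.0 to 0.1225 kb when a list was left out. The 13 members changed in the Sox9null-labelled list against control E11.5 became 8 with the upper 50%, 7 with 5 kb, 8 with 100 kb and 2 with the lists exchanged. The 9 changed in the Sox9cKO-labelled list against control E12.5 became 5 with 5 kb. The 9 changed between controls became 16 after scaling. Gene-end peaks in all 4 lists were at 17 to 19 members when a list was left out, and none at 20 to 21. With the start site alone the count in all 4 lists was 9 of the 28 members with a listed start, where either end gave 10.

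In the added pairing, the 15 lower members became 8 with the upper 50%, 9 with 5 kb, 10 without members of shared windows, and 17 to 20 when a list was left out. The 6 higher became 3 with 5 kb, 2 after scaling and 7 to 12 when a list was left out. Of single members, Foxp3 turned to 0.206 kb higher in deficient lists with the upper 50%. In the added pairing Foxf2 turned to 3.797 kb and Foxr1 to -1.459 kb with 100 kb, Foxn2 to 0.164 kb with the upper 50%, and Foxj2 to -0.323 kb with the upper 50%, -0.116 kb with 5 kb and -0.189 kb after scaling. The cause of these changes was not tested. Another 61 recomputed counts and medians were equal to the main value or within 1.5 times of it. No paired analysis was possible because each group has 1 library and the labels carry no replicate numbers.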
